A study of Mus musculus with 23 samples.

Results

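The 10 genes described here are the lipid-sensing receptor Trem2 and its signalling adaptor Tyrobp, the receptor tyrosine kinases Axl and Mertk and their bridging ligand Gas6, and 5 genes known as markers of activated microglia: Lpl, Spp1, Gpnmb, Cst7 and Itgax. They were chosen by symbol, with earlier results of these data known, and all 10 were found among the 32285 genes of the matrix. Their unique molecular identifiers (UMIs, each standing for 1 captured RNA molecule) were followed in brain cells sorted by how much of an injected, fluorescently labelled antibody they carried. Mice of 12 weeks received 45 mg/kg of antibody conjugated to Alexa Fluor 647 in the tail vein, and brains were taken 24 h later. ATV-TfR (DNP02_hIgG1_LALAPG_ATV35.23.2), which binds the transferrin receptor, was given to TfR mu/hu KI mice. ATV-CD98hc (DNP02 LALAPG LLB2-10-8 monovalent), which binds CD98hc, was given to CD98hc mu/hu KI mice. The control IgG (DNP02_hIgG1_LALAPG), which carries neither binding site, was given to C57BL/6 mice (C57BL/6J in the series' design text, which names that strain as the background of the knock-in lines). Treatment and genotype therefore cannot be told apart.

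Live cells from brain without olfactory bulbs, cerebellum, pons and medulla were sorted into 4 bins (negative, low, medium and high fluorescence), with gates set on the ATV-TfR cells and used for all 3 treatments. Each library held cells pooled from 1 male and 1 female, and each treatment had 2 such pools. The 4 bins of a pool came from the same 2 animals. This gave 12 groups and 23 libraries, since only pool 2 of the control IgG negative bin is used here. All brains were dissociated with Actinomycin D and Anisomycin, inhibitors of transcription and translation, and myelin was removed with sucrose. A comparison of bins thus compares cells that differed in antibody fluorescence within the same mice. The main test did not pair the bins of a pool. Its p-values measure the spread between the libraries of a group, which came from different pools. A fit that took the pool as replicate block was run as an alternative.

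TREM2 is a surface receptor of myeloid cells that recognises lipids and lipoproteins and signals through the ITAM-bearing adaptor TYROBP (DAP12). AXL and MERTK bind phosphatidylserine-exposing cells through GAS6, and MERTK is a main receptor for uptake of dead cells. When microglia meet myelin debris or amyloid, a program that depends in part on TREM2 raises lipoprotein lipase (Lpl), osteopontin (Spp1), the cysteine protease inhibitor cystatin F (Cst7), the integrin CD11c (Itgax), the lysosomal glycoprotein Gpnmb and Axl. Border macrophages of the meninges and perivascular spaces are a separate macrophage population.

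Of 265025 barcodes, 249715 passed the cell filters and 235249 remained after predicted doublets were removed. The libraries held 1861238 to 90307818 UMIs and 518 to 19396 kept cells each, with a median of 2177 to 4963 UMIs per cell. Barcode sequences shared between libraries made up at most 1.16% of the smaller library of any pair. Cells were clustered without the 10 genes, and clusters were named from lists of marker genes. The microglia-like cells were 1 cluster of 9022 cells in which 12 of 12 microglial markers were detected. The border macrophage-like cells were 1 cluster of 3274 cells with 10 of 10 border macrophage markers, led by H2-Eb1, H2-Aa, Mrc1 and Cd74. Within it, the largest sub-cluster (1708 cells) passed no marker list, with 4 of 10 border macrophage markers. Sub-clusters of 318 cells (led by Wfdc17 and Ms4a7) and of 154 cells (led by Acp5) passed none either. The sub-cluster led by Lyve1 (775 cells) held 10 of 10, so the class name covers cells of mixed identity. The cluster with most B cell markers (869 cells) also held 8 of 10 markers of monocytes or dendritic cells. At Leiden resolution 2 its cells fell into 329 B cell-like and 540 monocyte or dendritic cell-like cells, so levels given for the B cell-like cluster are those of a mixture. In all, 27408 cells (11.65%) stayed unnamed, some in clusters that met a marker list but had leading genes or a depth against its name. One of these, of 3171 cells, held 9 of 10 astrocyte and 7 of 12 microglial markers. It made up 9.6% and 3.32% of the kept cells in the 2 negative libraries of ATV-TfR and was not among the microglia-like cells.

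Levels by cell class are given in CPM, the UMIs of a gene scaled to the same total of UMIs in every class and pool, as the mean over the pools that held at least 20 cells of it. The same class was read in up to 6 pools, and no test was run because the levels were used only to describe where each gene was found. Trem2 (chromosome 17, 48346401 to 48354147, plus strand, GRCm38) was highest in microglia-like cells at 2509 ± 317 CPM (SD), with pools from 2030 to 2850. Border macrophage-like cells followed at 443 ± 85.2 CPM, from 291.7 to 529.7, so the 2 classes did not overlap. All other named classes averaged 45.2 CPM or less, while the unnamed cluster of 3171 cells held 342.9 CPM of Trem2 with its pools summed. Tyrobp (chromosome 7, 30413760 to 30417585, plus strand) was spread more widely. It stood at 2239 ± 453 CPM in microglia-like, 2170 ± 569 in neutrophil-like, 1579 ± 387 in border macrophage-like and 1345 ± 376 in cells of the B cell-like cluster, and the pools of these 4 classes overlapped from each class to the next. Of the cells of the B cell-like cluster, those that were monocyte or dendritic cell-like at resolution 2 held 1834 CPM of Tyrobp and the others 63.47.

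The kinase receptors had different places. Axl (chromosome 7, 25757273 to 25788705, minus strand) was highest in border macrophage-like cells at 197 ± 28.6 CPM, above smooth muscle-like (129 ± 12.8), pericyte-like (120 ± 20.9) and fibroblast-like cells (106 ± 5.7), with no overlap of border macrophage-like and smooth muscle-like pools. The largest border macrophage sub-cluster, which passed no marker list, held 295.6 CPM of Axl. The Lyve1-led sub-cluster held less than each of these other classes, as given below. In microglia-like cells Axl averaged 33.65 ± 55 CPM over pools from 6.608 to 145.6, the highest being pool 1 of control IgG, which held 25 such cells and no negative bin. Without that pool the mean of Axl over the other pools was 11.27 ± 4.37 CPM. Mertk (chromosome 2, 128698956 to 128802894, plus strand) had its highest class mean in microglia-like cells at 1064 ± 247 CPM, and its pools (613.4 to 1352) overlapped those of astrocyte-like cells (532 ± 199, from 133.9 to 662.9). By single cluster with pools summed, an astrocyte-like cluster of 7975 cells held 1241 CPM. The unnamed cluster of 3171 cells held 1546, against 1134 in the microglia-like cluster. Mertk overlaps the antisense gene Gm14011 and the small RNA gene Gm23172. Gas6 overlaps Tmem255b on the other strand, and Spp1 overlaps Gm42793 on its own strand. Reads of these genes were counted as the authors deposited them. The ligand Gas6 (chromosome 8, 13465374 to 13494490, minus strand) had its highest class means in ependymal-like (490.5 ± 78 CPM) and choroid plexus epithelial-like cells (436.5 ± 57 CPM). Border macrophage-like cells held 324 ± 68 CPM of Gas6 as a class, with 956.0 in their Lyve1-led sub-cluster, and microglia-like cells 121 ± 21.

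The activation markers were low in microglia-like cells as a whole, and for Spp1 and Lpl other classes held more. Spp1 (chromosome 5, 104435118 to 104441050, plus strand) stood at 1399 ± 477 CPM in fibroblast-like cells (968.4 to 2154) against 140 ± 212 in microglia-like cells (7.008 to 561.4), with no overlap. Lpl (chromosome 8, 68880491 to 68907448, plus strand) averaged 278 ± 86 CPM in fibroblast-like and 118 ± 147 in microglia-like cells, whose pools ran from 42.05 to 415.9. The highest of these pools was again the one of 25 cells, and without it the microglia-like means were 55.28 ± 52.61 CPM for Spp1, 58.35 ± 21.76 for Lpl and 11.41 ± 3.59 for Itgax. Cst7 (chromosome 2, 150570415 to 150578944, plus strand) was highest in T or NK cell-like cells at 46.4 ± 15 CPM, above microglia-like cells at 13.9 ± 5.1 with no overlap. Itgax (chromosome 7, 128129547 to 128150657, plus strand) was highest in the B cell-like cluster at 67.6 ± 18 CPM, against 18.2 ± 17 in microglia-like and 12.8 ± 5.4 in border macrophage-like cells. All 249 UMIs of Itgax in that cluster were in its monocyte or dendritic cell-like part (95.45 CPM). Gpnmb (chromosome 6, 49036546 to 49070929, plus strand) had 1470 UMIs in all kept cells, of which 1293 lay in the 92864 astrocyte-like cells (2.66 ± 1.4 CPM) and 85 in choroid plexus epithelial-like cells. Microglia-like cells held 26 UMIs of Gpnmb (0.587 CPM), and the highest class mean, 7.20 CPM in oligodendrocyte precursor-like cells, rested on 12 UMIs.

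**Figure D1:**
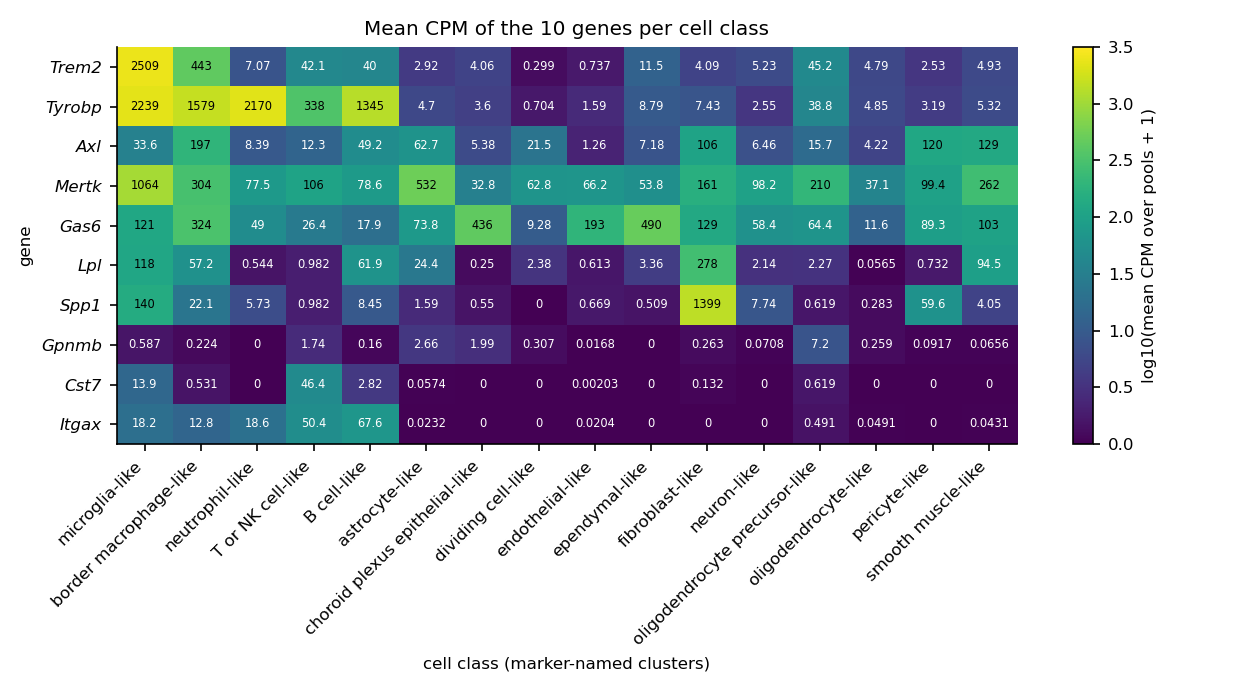
Mean CPM over pools of each of the 10 genes (rows) in each cell class (columns), printed in the cells of a colour map on the scale log10(mean CPM + 1). Trem2 and Mertk are highest in microglia-like cells, Axl in border macrophage-like cells, Gas6 in ependymal-like and choroid plexus epithelial-like cells, and Spp1 and Lpl in fibroblast-like cells.

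Shares of cells with at least 1 UMI were compared after thinning each cell to 1500 UMIs. Among 8034 microglia-like cells, 94.05% had Trem2 (95% exact binomial interval 93.51 to 94.56%), 91.1% Tyrobp and 77.77% Mertk. The activation markers were found in few: 2.514% had Lpl, 1.245% Cst7, 1.22% Itgax, 1.07% Axl, 0.5352% Spp1 and 0.06224% Gpnmb. Without thinning (median 3469 UMIs) the shares were 98.37% for Trem2, 4.777% for Lpl, 2.948% for Axl and 1.042% for Spp1. In endothelial-like cells, which should lack Trem2 and Tyrobp (median 3265 UMIs), the thinned shares were 0.1503% for Trem2, 0.2419% for Tyrobp, 0.2132% for Axl, 0.07789% for Lpl and 0.05602% for Spp1. Among 2445 border macrophage-like cells (median 2288 UMIs), 81.27% had Tyrobp, 42.33% Trem2, 31.17% Mertk, 30.35% Gas6 and 25.52% Axl. Cst7 was found in none of them. Intervals and floors cover counting error only.

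Over 89 sums of a class in a pool, the genes whose log2(CPM + 1) followed a member most closely were described by Pearson's r; sums of 1 pool share animals and libraries. Trem2 was most like the complement genes C1qb (r = 0.956) and C1qa (0.934), and Tyrobp most like Fcer1g (0.985), another ITAM adaptor. Itgax was most like Myo1g (0.957), Cst7 like Pdcd1 (0.882), Spp1 like Gm33370 (0.808), Lpl like Stbd1 (0.796), Mertk like Lonrf3 (0.777), Gas6 like Msrb2 (0.759), Axl like Mmp14 (0.735) and Gpnmb like Gm33680 (0.590). Among the members themselves, Tyrobp and Itgax were the closest pair (0.880), followed by Trem2 with Tyrobp (0.703).

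Microglia-like cells that carried more ATV-TfR held far more RNA of Lpl, Spp1, Cst7, Itgax and Axl, while Trem2 stood at about the same level and Gpnmb was barely detected. Counts were summed per library and compared with edgeR's quasi-likelihood test over 12240 genes, all 10 members among them, and a gene is called changed where the Benjamini-Hochberg adjusted p lay below 0.05. All values that follow for single libraries are CPM of the microglia-like cells, pool 1 first. Between the low and the negative bin of ATV-TfR, 5 of the 10 members rose, none fell, and the member median of the log2 fold change was 2.62 against -0.0161 for all genes tested. Over all genes, 8.76% were called in either direction, 1006 higher and 66 lower. Without cells that held an astrocyte marker UMI, few cells remained and 1 of 7 tested members was called in this low bin, as described below.

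Lpl, which frees fatty acids from lipoproteins, stood at 13.03 and 14.07 CPM in the negative bin of ATV-TfR (2009 and 1270 cells), 119 and 148 in the low bin (312 and 301 cells) and 380 and 1041 in the medium bin (40 and 47 cells). No bin overlapped another. The low bin was higher than the negative by 3.40 ± 0.41 (log2 fold change ± SE, adjusted p = 8.9e-07) and the medium bin by 5.83 ± 0.43 (adjusted p = 5.4e-10). Cst7, an inhibitor of lysosomal cathepsins, went from 5.86 and 5.53 CPM to 43.3 and 36.9 in the low and 108 and 106 in the medium bin. Its log2 fold changes against the negative bin were 2.88 ± 0.43 and 4.32 ± 0.53 (adjusted p = 2e-05 and 1.7e-06). For Cst7 the pools of 1 bin were close together and no bin overlapped another.

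Itgax stood at 4.30 and 4.27 CPM in the negative, 22.5 and 32.0 in the low and 51.8 and 76.5 in the medium bin. It rose by 2.73 ± 0.41 in the low bin (adjusted p = 2.5e-05) and by 4.00 ± 0.54 in the medium bin (adjusted p = 6.2e-06). Axl, in the same libraries, went from 3.00 and 4.77 CPM to 14.4 and 25.4 and then 64.7 and 59.5, with log2 fold changes of 2.51 ± 0.47 and 4.17 ± 0.59 (adjusted p = 0.00048 and 1.2e-05). For both surface receptors the order of the bins held in each pool.

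Spp1 rested on very few molecules in the negative bin, with 6 and 5 UMIs (0.782 and 1.26 CPM). It stood at 137 and 19.7 CPM in the low bin and 850 and 535 in the medium bin, so pool 1 of the low bin was well above pool 2. The log2 fold changes were 6.37 ± 1.03 in the low and 9.53 ± 0.91 in the medium bin (adjusted p = 6.2e-05 and 2.9e-08). Without pool 1 of ATV-TfR the low-bin difference of Spp1 was 3.97 and was no longer called (adjusted p = 0.29). Gpnmb had at most 2 UMIs in any library of these 3 bins.

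Trem2, Tyrobp, Mertk and Gas6 moved less. Trem2 stood at 2531 and 2801 CPM in the negative bin, 2596 and 2866 in the low and 2562 and 3034 in the medium bin. The bins overlapped, and the log2 fold changes were 0.12 ± 0.23 and 0.18 ± 0.23 (adjusted p = 0.85 and 0.72). Tyrobp went from 2140 and 1909 CPM to 2867 and 2791 in the low and 3218 and 3578 in the medium bin. It was called higher in the medium bin, by 0.86 ± 0.22 (adjusted p = 0.01), though not when either ATV-TfR pool was left out (1.01, adjusted p = 0.22, and 0.75, adjusted p = 0.29). In the low bin Tyrobp differed by 0.57 ± 0.22 (adjusted p = 0.12, and 0.018 with the pool as replicate block).

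Mertk was lower in labelled microglia-like cells, at 1158 and 1242 CPM in the negative, 970 and 915 in the low and 617 and 773 in the medium bin. The medium-bin difference of -0.68 ± 0.23 missed the threshold (adjusted p = 0.052) and passed it with the pool as replicate block (-0.68, adjusted p = 0.0042). Microglial markers were lower in that bin as well, as described below, and their part in the Mertk difference was not tested. Gas6, at 139 and 127 CPM in the negative and 117 and 111 in the medium bin, differed by -0.12 on the log2 scale and was not called. Over the medium bin as a whole, 6 of the 10 members were called higher and none lower, against 11.1% of all genes called in either direction, and the member median was 3.97 against -0.0481 for all genes.

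The high bin of ATV-TfR held 15 and 11 microglia-like cells and was compared only with a minimum lowered to 8 cells, an alternative added after the data were seen. Lpl stood there at 745 and 551 CPM, Cst7 at 248 and 165, Spp1 at 562 and 454, Itgax at 65.4 and 68.8 and Axl at 65.4 and 27.5. Against the negative bin, Lpl was higher by 5.64 ± 0.54 (adjusted p = 9.8e-07), Cst7 by 5.22 ± 0.67 (adjusted p = 2.6e-05) and Spp1 by 9.02 ± 1.27 (adjusted p = 5.7e-05). Axl, Itgax and Tyrobp were called as well, 6 members in all, with 4.61% of 11096 genes called. From the low to the high bin, Cst7 rose by 2.35 (adjusted p = 0.038) and Lpl by 2.26 (adjusted p = 0.013), where 1.12% of genes were called.

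**Figure D2:**
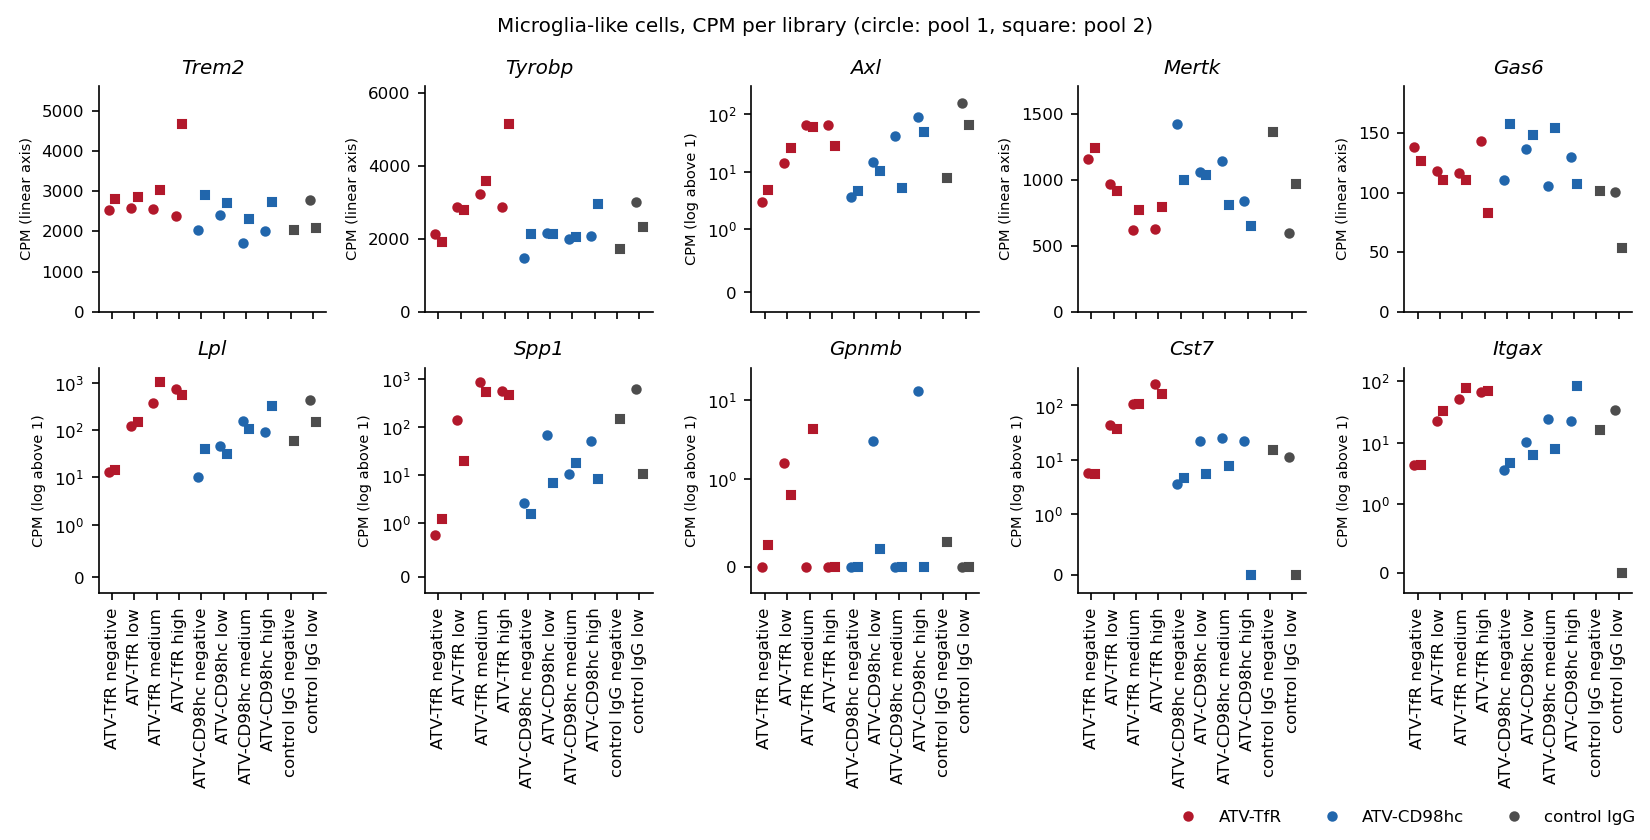
Level of each member in microglia-like cells of every library, in CPM, by treatment and fluorescence bin; each point is 1 library with at least 8 such cells (circles pool 1, squares pool 2), and the axes of Trem2, Tyrobp, Mertk and Gas6 are linear while the others are logarithmic above 1 CPM. Lpl, Cst7, Itgax, Axl and Spp1 climb from the negative to the medium bin of ATV-TfR while Trem2 stays between 2531 and 3034 CPM.

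With ATV-CD98hc the values of these 5 genes were mostly higher in labelled bins, and fewer differences passed the test. No member was called in the low bin, at 4.81% of all genes called, and 3 members lay below an unadjusted p of 0.05. Spp1 stood at 2.60 and 1.55 CPM in the negative bin (536 and 225 cells) and at 67.4 and 6.82 in the low bin (1588 and 1406 cells). Its difference of 3.97 ± 1.36 had an adjusted p of 0.12, and one of 4.33 with the pool as replicate block was called (adjusted p = 2.3e-05). The block also brought in Cst7 (2.12, adjusted p = 0.005) and Axl (1.86, adjusted p = 0.034) for the low bin.

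Axl rose with ATV-CD98hc from 3.64 and 4.65 CPM in the negative bin to 42.8 and 5.14 in the medium bin (167 and 93 cells) and 89.1 and 49.5 in the high bin (60 and 27 cells). The log2 fold changes were 2.94 ± 0.64 and 4.34 ± 0.66 (adjusted p = 0.0048 and 0.00018). Only pool 1 carried the rise of Axl in the medium bin: without it the difference was 0.16 (adjusted p = 1.0). Lpl went from 10.4 and 38.8 CPM to 155 and 105 in the medium and 89.1 and 322 in the high bin, by 2.88 ± 0.54 and 3.21 ± 0.65 (adjusted p = 0.0012 and 0.0025). Lpl likewise lost its medium-bin call without pool 1 (1.46, adjusted p = 0.71).

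Of the 10 members, 2 were called higher in the medium bin of ATV-CD98hc, Axl and Lpl, at 4.64% of all genes. In the high bin 3 were called higher, at 5.24% of all genes, with Itgax added at 22.3 and 82.5 CPM against 3.64 and 4.65 (3.42 ± 0.75, adjusted p = 0.0053). All 3 calls of the high bin were lost without pool 1 (Axl 3.46, adjusted p = 0.28; Itgax 4.20, adjusted p = 0.076; Lpl 3.12, adjusted p = 0.099), and that of Itgax without pool 2 (2.66, adjusted p = 0.16). With the pool as replicate block, Itgax (2.23, adjusted p = 0.034) and Cst7 (2.35, adjusted p = 0.0084) were also called in the medium bin. The block added Spp1 (4.13, adjusted p = 0.0071), Tyrobp (0.54, adjusted p = 0.043) and, as lower, Mertk (-0.63, adjusted p = 0.017) in the high bin.

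From the low to the high bin of ATV-CD98hc, Axl rose by 2.67 ± 0.49 (adjusted p = 0.0012), Itgax by 2.36 ± 0.61 (adjusted p = 0.018) and Lpl by 2.20 ± 0.54 (adjusted p = 0.012), where 5.39% of genes were called. The call of Axl was lost without pool 1 of ATV-CD98hc (2.38, adjusted p = 0.3), and those of Lpl (1.05, adjusted p = 0.59) and Itgax (1.18, adjusted p = 0.64) without pool 2. Cst7 in the high bin was split, with 22.3 CPM in pool 1 and no UMI in pool 2. Trem2 differed little: it was 2043 and 2920 CPM in the negative and 2010 and 2729 in the high bin, a log2 fold change of -0.016 ± 0.24 (adjusted p = 0.99). Member medians were 1.04, 1.22 and 2.64 in the low, medium and high bins, against -0.0138, -0.0567 and -0.107 for all genes.

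The difference between the antibodies was tested as an interaction. From the negative to the medium bin, Lpl rose more with ATV-TfR, by 2.95 ± 0.76 (adjusted p = 0.026). It was the 1 member called, at 3.01% of genes called, and it was lost without pool 2 of ATV-TfR (2.14) or without either pool of ATV-CD98hc (4.40 and 1.92). The call was also lost with doublets kept and without cells that held an endothelial marker UMI. Leaving out sub-clusters of other cell types, or the one led by Ccl4 and Ccl3, ended it as well. Spp1 differed by 7.104 ± 3.68 (adjusted p = 0.5, and 7.24 with adjusted p = 0.0077 with the replicate block), Cst7 by 2.00 ± 1.05 (adjusted p = 0.51) and Trem2 by 0.48 ± 0.33 (adjusted p = 0.67). For the low bin no member and 0% of genes were called by edgeR, with 1 member below an unadjusted p of 0.05, Lpl at 2.38 ± 0.73 (adjusted p = 1.0).

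**Figure D3:**
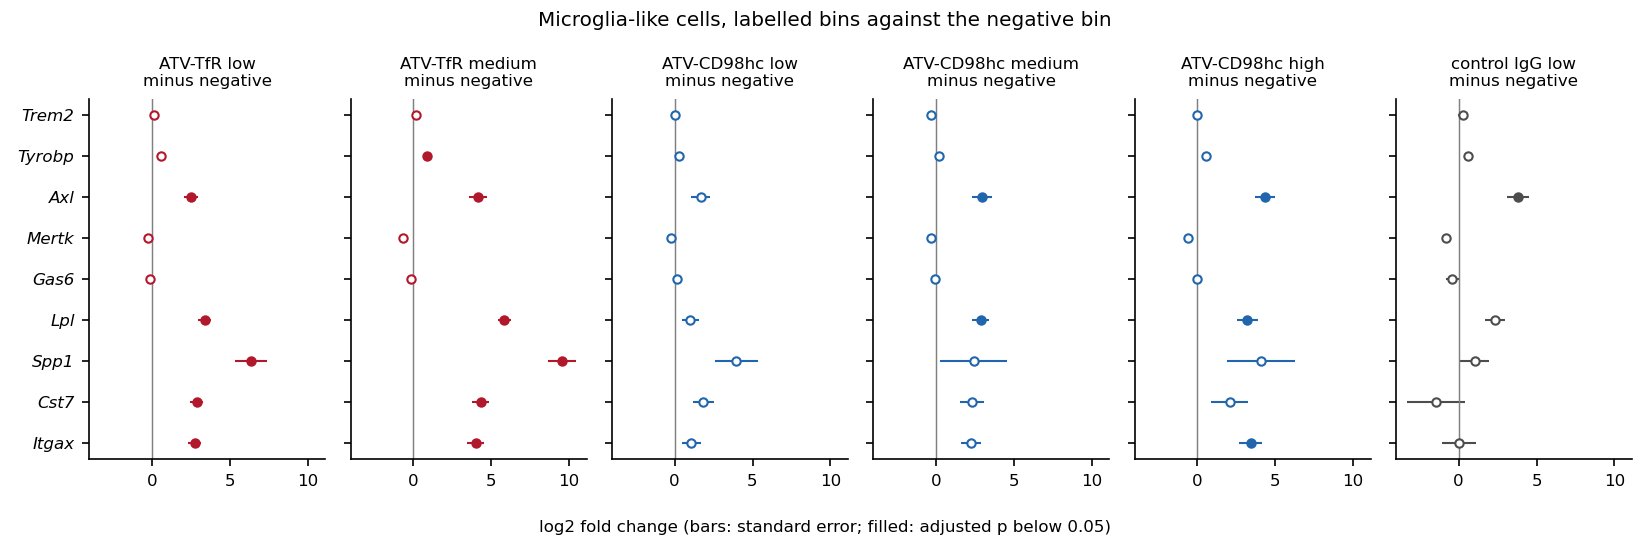
Log2 fold change of 9 members (all but Gpnmb, which had few UMIs) in microglia-like cells, labelled bin minus negative bin of the same treatment, with bars of 1 SE; filled points are called at an adjusted p below 0.05. Lpl, Cst7, Itgax, Axl and Spp1 lie above 0 in both ATV-TfR bins shown, and Trem2 lies near 0 throughout.

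Control IgG left few labelled microglia-like cells, 22 and 20 in the low bin, 3 and 3 in the medium bin and none in the high bin. In the low bin Axl stood at 157 and 64.5 CPM against 7.73 in the 867 cells of the single negative library, higher by 3.82 ± 0.71 (adjusted p = 0.0056), with the single library assumed to vary like the other groups. It was the only member called of 10, with 1.15% of genes called, and neither the fit with the replicate block (3.01, adjusted p = 0.16) nor the one without pool 1 (3.01, adjusted p = 0.4) called it. Lpl, at 437 and 151 CPM against 57.3, differed by 2.35 ± 0.63 (adjusted p = 0.062). Trem2, at 2792 and 2076 CPM against 2026, differed by 0.27 ± 0.29 (adjusted p = 0.74). The member median was 0.155 against -0.229 for all genes.

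The negative bins of the 3 treatments were also set against each other. Spp1 stood at 149 CPM in the control IgG library, from 521 UMIs, and at 0.782 and 1.26 in the ATV-TfR libraries, lower in ATV-TfR by 7.21 on the log2 scale (log2 fold change -7.21 ± 0.96, adjusted p = 0.00081). It was the 1 member called, at 0.0327% of genes called, and 4 members lay below an unadjusted p of 0.05 (member median -1.13). The control IgG side is again 1 library with no spread of its own, and DESeq2 gave -7.19 with an adjusted p of 0.22, which is not a call. Between ATV-CD98hc and control IgG no member was called by edgeR (Spp1 -5.96 ± 1.21, adjusted p = 0.13), at 0.0245% of genes, and 4 members lay below an unadjusted p of 0.05 (member median -1.29). Between ATV-TfR and ATV-CD98hc edgeR called no member, none lay below an unadjusted p of 0.05, and 0.00817% of genes were called.

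Other genes of these pathways were read from lists, which like the members were chosen with earlier results of these data known. Their counts stand against 8.76% of all genes called in the low and 11.1% in the medium bin of ATV-TfR. Of 12 tested genes of TREM2 signalling and shedding, edgeR called none in the low bin, and 5 fell in the medium bin: Inpp5d, Lyn, Cd33, Plcg2 and Syk (list median -0.62). Syk, the kinase recruited by TYROBP, stood at 56.1 to 106 CPM against 158 to 167 (-0.89 ± 0.25, adjusted p = 0.019). Cd33, an inhibitory sialic acid receptor, stood at 129 to 136 CPM against 263 to 291 (-0.95 ± 0.26, adjusted p = 0.016). Microglial marker RNA was lower in this medium bin too, as described below, and its part in these values was not tested. Of 11 tested genes of the TAM receptor axis, Lgals3, a galectin that binds MERTK, rose in the low bin from 2.61 to 5.78 CPM up to 52.1 to 146 (4.79 ± 0.42, adjusted p = 6.4e-09) together with Socs3 (1.02, adjusted p = 0.03). Lgals3 also rose in the medium bin of ATV-CD98hc, at 141 to 143 CPM against 3.12 to 9.30 (4.91, adjusted p = 4e-06).

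Of 26 other genes of activated microglia, 9 rose in the low and 20 in the medium bin of ATV-TfR and none fell, with list medians of 0.83 and 1.45. For ATV-CD98hc 0, 5 and 11 rose in the low, medium and high bins, where 4.81%, 4.64% and 5.24% of all genes were called, and for control IgG 5 rose in the low bin, where 1.15% were. Apoe, the lipoprotein ligand of TREM2, went from 595.5 to 890.8 CPM in the negative to 2766 to 3164 in the low bin of ATV-TfR (2.08 ± 0.46, adjusted p = 0.0026). It stood at 6123 to 9771 against 430 to 2024 CPM in the high bin of ATV-CD98hc (2.76 ± 0.47, adjusted p = 0.0005) and at 13440 to 15330 against 950.7 in the low bin of control IgG (3.92 ± 0.67, adjusted p = 0.003). Lilrb4a, an inhibitory receptor, rose in the low bin of ATV-TfR (20.8 to 29.5 against 2.01 to 2.87 CPM, 3.37 ± 0.47, adjusted p = 8.8e-06). Igf1, a growth factor, stood at 25.5 to 25.9 against 0.651 to 1.01 CPM in the medium bin of ATV-TfR (5.03, adjusted p = 0.00072), which held 40 and 47 cells. Astrocyte marker RNA rose in microglia-like cells of these ATV-TfR bins too, as described below. Its part in the values of these list genes is not given here.

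Among 11 tested genes of lipid handling around lipoprotein lipase, Angptl4, an inhibitor of the lipase, was called in the low bin of ATV-TfR (3.69, adjusted p = 0.0091). For the medium bin 6 rose and 1 fell. These included the fatty acid receptor Cd36 (17.3 to 46.7 against 0 to 0.503 CPM, 7.16, adjusted p = 4e-05) and the apolipoprotein Apoc1 (21.6 to 38.2 against 0.651 to 1.26 CPM, 5.10, adjusted p = 6.6e-05), and Lpcat2 was the one that fell (-0.65). The medium-bin values rest on 40 and 47 cells and so on few UMIs. Apoc1 was also a leading gene of an astrocyte-like cluster of 20313 cells. Astrocyte marker RNA rose in this bin, as described below, and its part in these values was not tested. Of 12 tested partners of osteopontin, GPNMB and CD11c, 1 rose and 1 fell in each ATV-TfR bin: the osteopontin receptor Cd44 (2.08, adjusted p = 0.034) and the integrin Itga9 (-0.57, adjusted p = 0.028) in the low bin. Of 5 tested MHC class II genes, Cd74 (90.6 to 151 against 24.1 to 25.9 CPM, 2.35 ± 0.26, adjusted p = 1.6e-07) and H2-Ab1 (1.26, adjusted p = 0.0078) rose in the low bin of ATV-TfR.

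RNA of other cell types moved with the bins, and its part in the member values was tested only by leaving cells out. In the low bin of ATV-TfR 9 of 10 astrocyte markers were called higher in microglia-like cells, with a summed level of 1697 and 1571 CPM against 400.5 and 520.4 in the negative bin. All 10 were called higher in the medium bin (4158 and 1326 CPM). For ATV-CD98hc, 11 of 12 endothelial markers were called higher in the medium (2185 and 2162 CPM against 46.2 and 46.5) and in the high bin (2996 and 1459 CPM). The 12 microglial markers summed to 26200 and 27560 CPM in the negative, 20940 and 22610 in the low and 16210 and 19530 in the medium bin of ATV-TfR, with 0, then 6 of 12, called lower. No border macrophage marker was called in any of these comparisons.

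Without cells that held an endothelial marker UMI, Lpl (3.35 and 5.48), Cst7 (2.85 and 4.19), Itgax (2.52 and 3.52), Axl (2.76 and 4.39) and Spp1 (3.94 and 10.1) were still called higher in both of these ATV-TfR bins. With ATV-CD98hc, where 35 and 39 such cells were left in the medium bin, Axl (1.65, adjusted p = 0.82) and Lpl (2.76, adjusted p = 0.39) were not. Without cells that held an astrocyte marker UMI, only 47 and 29 cells remained in the low bin of ATV-TfR. There Lpl was higher by 3.78 ± 0.50 (adjusted p = 2.3e-06), while Axl (2.60, adjusted p = 0.5) was not called, Spp1 turned to -3.41 (adjusted p = 0.9) and Cst7 and Itgax were too low to test. The medium bin kept 7 and 6 cells and was not fitted.

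The levels of these genes were highest in a sub-cluster of microglia-like cells led by the chemokines Ccl4 and Ccl3, while their rise between bins was also seen outside it. This sub-cluster of 702 cells came from clustering without the 10 genes, and its leading genes by fold also included Lpl, Cst7 and Itgax. It held 296.6 CPM of Lpl (pools from 122.7 to 727.3), 380.7 of Spp1 (36.14 to 1070), 63.96 of Cst7, 54.18 of Itgax and 39.66 of Axl. In the 5 largest other sub-clusters of microglia-like cells these genes stood at 7.07 to 12.6 CPM for Lpl, 0 to 1.41 for Spp1, 2.96 to 6.84 for Cst7, 3.70 to 5.32 for Itgax and 2.82 to 6.67 for Axl. A smaller unnamed sub-cluster led by Wfdc17 held more: 138.6 CPM of Lpl, 47.66 of Cst7 (11 UMIs, pools from 0 to 144.8), 26 of Axl and 17.33 of Spp1. Of its 136 cells, 79 were microglia-like and 57 border macrophage-like. Trem2 was not set apart: it was 2613 CPM in the chemokine-led sub-cluster and 2020 to 3684 in the others.

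The sub-cluster made up 6.86% of microglia-like cells in the negative bin of ATV-TfR (225 of 3279), 11.9% in the low (73 of 613), 25.3% in the medium (22 of 87) and 19.2% in the high bin (5 of 26). For ATV-CD98hc it made up 4.86% (37 of 761), 4.38% (131 of 2994), 25.4% (66 of 260) and 46.0% (40 of 87) from the negative to the high bin. For control IgG it was 8.54% of the negative (74 of 867) and 61.9% of the low bin (26 of 42). The share was above that of the negative bin in every labelled group given here except the low bin of ATV-CD98hc. These shares were not tested, since the cells of a library share their animals and sort.

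Levels within the sub-cluster differed between bins as well. Lpl there stood at 64.2 and 95.8 CPM in the negative, 321 and 722 in the low and 415 and 1913 in the medium bin of ATV-TfR. Cst7 stood at 16.9 and 53.2, then 147 and 134, then 144 and 218 CPM. For ATV-CD98hc, Lpl stood at 16.5 and 384 CPM in the negative and 159 and 412 in the high bin, so the pools of these bins overlapped. With the sub-cluster left out, an alternative added after the data were seen, all 5 genes were still called in both ATV-TfR bins, low first: Lpl 2.87 and 5.68, Cst7 2.43 and 4.06, Axl 2.62 and 4.58, Itgax 1.62 and 3.13, and Spp1 3.68 and 5.20. The medium-bin call of Tyrobp was lost (0.33, adjusted p = 0.41), and so was the Spp1 difference between the negative bins of ATV-TfR and control IgG (-2.59, adjusted p = 0.87).

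**Figure D4:**
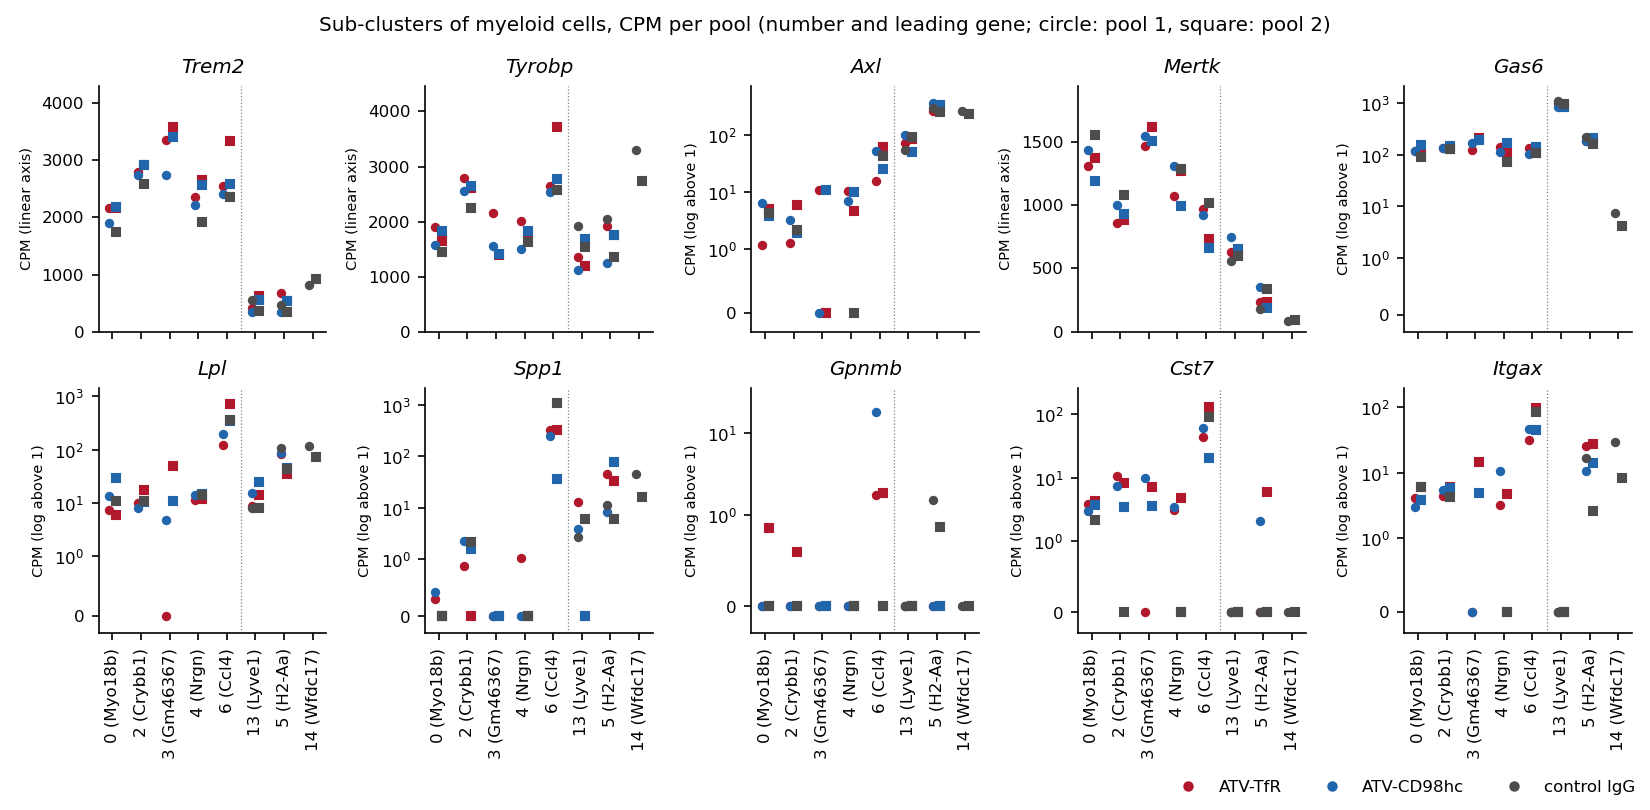
Level of each member in 5 sub-clusters of microglia-like cells (left of the dotted line) and 3 of border macrophage-like cells (right), in CPM, with 1 point per pool (circles pool 1, squares pool 2; Axl, Gas6, Lpl, Spp1, Gpnmb, Cst7 and Itgax on axes that are logarithmic above 1 CPM). Of the 3 on the right, the one led by Lyve1 passed the border macrophage list, while those led by H2-Aa and Wfdc17 passed no list. The chemokine-led sub-cluster (702 cells) stands highest of those shown for Lpl (296.6 CPM) and Spp1 (380.7 CPM), and the border macrophage sub-cluster led by Lyve1 and F13a1 stands highest for Gas6 (956.0 CPM).

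Single cells that held several of the markers were rare. After thinning to 1500 UMIs, cells with UMIs of at least 2 of 6 genes (Axl, Lpl, Spp1, Gpnmb, Cst7 and Itgax) were 2 of 1894 (0.106%, exact interval 0.0128 to 0.381%) and 3 of 1076 (0.279%) in the negative bin of ATV-TfR. They were 7 of 284 (2.47%, 0.997 to 5.01%) and 9 of 262 (3.44%, 1.58 to 6.42%) in the low bin, and in the medium bin 5 of 38 (13.2%, 4.41 to 28.1%) and 4 of 44 (9.09%, 2.53 to 21.7%). These intervals cover counting error only, and no test was run over cells. For ATV-CD98hc they were 0 of 506 and 1 of 179 in the negative bin (0 of 506 allows up to 0.726%), and 1 of 57 and 3 of 27 in the high bin. Between these, the low bin had 10 of 1319 and 2 of 1204 and the medium bin 6 of 162 and 1 of 82. Pool 2 of the low bin (0.166%) lay below pool 2 of the negative bin (0.559%). For control IgG they were 9 of 835 (1.08%) in the negative and 3 of 20 in 1 library of the low bin.

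Windows of 250 bases before the RefSeq gene start (GRCm38.p6) were read for 8 of the 10 members, all but Tyrobp and Lpl, of which Spp1 had 2 windows. Those of Trem2 and of 4 genes that rose with ATV-TfR are shown, since they let the start regions of the receptor and the markers be compared. Letters in capitals mark matches, on either strand, to TGANTCA, a loose form of the AP-1 motif with any base in its middle, or to GAGGAA, the core of the myeloid factor PU.1. The Trem2 window is chr17:48346151-48346400 on the plus strand, Axl chr7:25788734-25788983 on the minus strand, Spp1 chr5:104434861-104435110 on the plus strand, Cst7 chr2:150570165-150570414 on the plus strand and Itgax chr7:128129300-128129549 on the plus strand.
Trem2: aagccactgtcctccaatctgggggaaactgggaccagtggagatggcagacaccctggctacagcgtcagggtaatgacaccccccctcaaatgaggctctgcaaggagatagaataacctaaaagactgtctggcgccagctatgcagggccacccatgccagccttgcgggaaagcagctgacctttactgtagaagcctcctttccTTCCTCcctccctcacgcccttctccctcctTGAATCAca
Axl: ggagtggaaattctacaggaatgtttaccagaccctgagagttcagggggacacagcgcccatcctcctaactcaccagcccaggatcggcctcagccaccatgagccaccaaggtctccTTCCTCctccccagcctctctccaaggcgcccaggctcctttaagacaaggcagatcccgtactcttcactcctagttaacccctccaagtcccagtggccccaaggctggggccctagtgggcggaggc
Spp1: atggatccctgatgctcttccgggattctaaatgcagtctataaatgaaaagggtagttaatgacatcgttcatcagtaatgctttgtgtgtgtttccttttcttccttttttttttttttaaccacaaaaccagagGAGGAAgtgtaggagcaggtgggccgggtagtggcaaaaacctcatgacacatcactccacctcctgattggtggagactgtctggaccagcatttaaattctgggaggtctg
Cst7: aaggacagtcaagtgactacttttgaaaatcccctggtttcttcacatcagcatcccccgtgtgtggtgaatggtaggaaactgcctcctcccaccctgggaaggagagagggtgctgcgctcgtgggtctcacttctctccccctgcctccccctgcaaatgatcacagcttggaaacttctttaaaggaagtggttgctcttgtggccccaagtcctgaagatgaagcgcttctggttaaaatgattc
Itgax: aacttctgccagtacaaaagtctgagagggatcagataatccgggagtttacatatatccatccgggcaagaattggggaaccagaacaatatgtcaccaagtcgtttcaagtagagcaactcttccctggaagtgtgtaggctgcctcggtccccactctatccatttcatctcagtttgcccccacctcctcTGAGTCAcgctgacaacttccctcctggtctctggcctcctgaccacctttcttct
The loose AP-1 pattern was found in 2 of the 8 members, Trem2 at bases 9 to 3 and Itgax at bases 56 to 50 before the start, and in 2113 of 27025 genes with a window (6.75% of 32851 windows). The match was TGAATCA in Trem2 and TGAGTCA in Itgax. The usual AP-1 site has C or G in its middle, so only the Itgax match has its form. The PU.1 core was found in 3, Trem2 at bases 40 to 35 and Axl at bases 130 to 125, both on the strand opposite to the one printed, and Spp1 at bases 113 to 108 of the window shown. The second Spp1 window (chr5:104435942-104436191) held none of the motifs. The core was found in 6986 of all genes (23.3% of windows). The E-box CACGTG was in no member window and in 6.02% of all windows. None of the 3 motifs was in the windows of Mertk, Gas6, Gpnmb and Cst7.

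Border macrophage-like cells followed another course, with less Trem2 and more Mertk in the labelled bins of ATV-TfR. Most cells of its negative bin (85 of 106) belonged to the unnamed H2-Aa-led sub-cluster. Of the 10 members, 8 passed the filter on low counts, leaving out Cst7 and Gpnmb. Trem2 stood at 834 and 748 CPM in the negative bin (63 and 43 cells), 579 and 470 in the low (63 and 59), 451 and 349 in the medium (133 and 77) and 338 and 398 in the high bin (106 and 89). The negative bin did not overlap the others. Log2 fold changes were -0.74 ± 0.28 in the low (adjusted p = 0.13, and 0.026 with the pool as replicate block), -1.13 ± 0.28 in the medium (adjusted p = 0.009) and -1.33 ± 0.28 in the high bin (adjusted p = 0.0026).

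Mertk went the other way, from 152 and 141 CPM in the negative bin to 359 and 465 in the low, 374 and 396 in the medium and 366 and 251 in the high bin. It was called higher in the low (1.35 ± 0.30, adjusted p = 0.0043) and medium bins (1.23 ± 0.29, adjusted p = 0.0084), and in the high bin only with the replicate block (0.85 ± 0.30, adjusted p = 0.088, and 0.036 with the block). Gas6 stood at 176 and 190 CPM in the negative and 508 and 357 in the medium bin (1.10 ± 0.39, adjusted p = 0.085, and 0.0012 with the block). Its high-bin difference of 0.77 was called with the block alone (adjusted p = 0.28, and 0.033). Receptor and ligand were thus both higher in the labelled libraries, with the call for Gas6 resting on the block. The low-bin rise of Mertk was not particular to this class. With ATV-TfR it was also called in ependymal-like (2.35, adjusted p = 7.3e-05), choroid plexus epithelial-like, fibroblast-like and oligodendrocyte-like cells.

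Axl, in contrast to microglia-like cells, was lower in labelled border macrophage-like cells, at 233 and 306 CPM in the negative, 188 and 141 in the low, 165 and 153 in the medium and 162 and 182 in the high bin. The differences of -0.84 ± 0.30, -0.90 ± 0.29 and -0.86 ± 0.30 had adjusted p of 0.11, 0.058 and 0.078, and of 0.048, 0.02 and 0.028 with the replicate block. Lpl fell by 2.10 on the log2 scale in the low bin (-2.10 ± 0.55, adjusted p = 0.016), from 80.2 and 98.0 CPM to 32.2 and 13.7, values that rest on 6 and 3 UMIs. The medium-bin difference of Lpl was -1.37 ± 0.46 (adjusted p = 0.066, and 0.026 with the block). Tyrobp fell in the high bin by 0.89 on the log2 scale (-0.89 ± 0.24, adjusted p = 0.019), from 2145 and 1605 to 1121 and 1238 CPM. The replicate block also brought in Itgax (adjusted p = 0.01) and Spp1 (adjusted p = 0.048) as lower in the high bin.

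In each labelled bin of ATV-TfR 2 of the 8 tested members were called, against 7.12%, 8.23% and 8.26% of 8800 genes in the low, medium and high bins, and the member medians were -0.789, -0.877 and -0.875 against 0.0526, 0.102 and 0.0244. Leaving out 1 pool of ATV-TfR ended each of these calls (adjusted p from 0.064 to 0.5) with the direction kept, except that of Trem2 in the high bin, which was lost without pool 1 (-1.15, adjusted p = 0.26) and kept without pool 2. For control IgG no member was called by edgeR in the low, medium or high bin against the single negative library (28 cells), where 0.886%, 1.55% and 2.65% of genes were called and 0, 1 and 0 members lay below an unadjusted p of 0.05. With the replicate block Gas6 was called lower in its high bin (-1.17, adjusted p = 0.046). Between the negative bins of ATV-TfR and control IgG no member was called by edgeR either (0.261% of genes; Mertk -1.05, adjusted p = 0.31). The negative bin of ATV-CD98hc held 18 and 8 border macrophage-like cells, and with a minimum of 8 cells Gas6 was higher in its medium bin (447 and 417 against 137 and 33.7 CPM, 2.11 ± 0.60, adjusted p = 0.043, with 3.84% of genes called).

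From the low to the high bin, Gas6 fell in control IgG by 1.38 on the log2 scale (-1.38 ± 0.34, adjusted p = 0.027), from 637 and 384 to 269 and 114 CPM. The call was lost without pool 2 of control IgG (-1.23, adjusted p = 0.1) and without any single pool of the other treatments (-1.38 to -1.42, adjusted p from 0.061 to 0.081). It was the 1 member called, at 2.18% of genes, and the block added Lpl as higher (1.01, adjusted p = 0.0082) and Trem2 as lower (-0.72, adjusted p = 0.017). For ATV-CD98hc Gas6 went from 401 and 473 to 187 and 232 CPM (-1.16 ± 0.36, adjusted p = 0.051, and 0.00019 with the block), with no member called by edgeR, 4 below an unadjusted p of 0.05, and 7.99% of genes called. For ATV-TfR no member was called, 3 lay below an unadjusted p of 0.05, and 9.36% of genes were called.

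**Figure D5:**
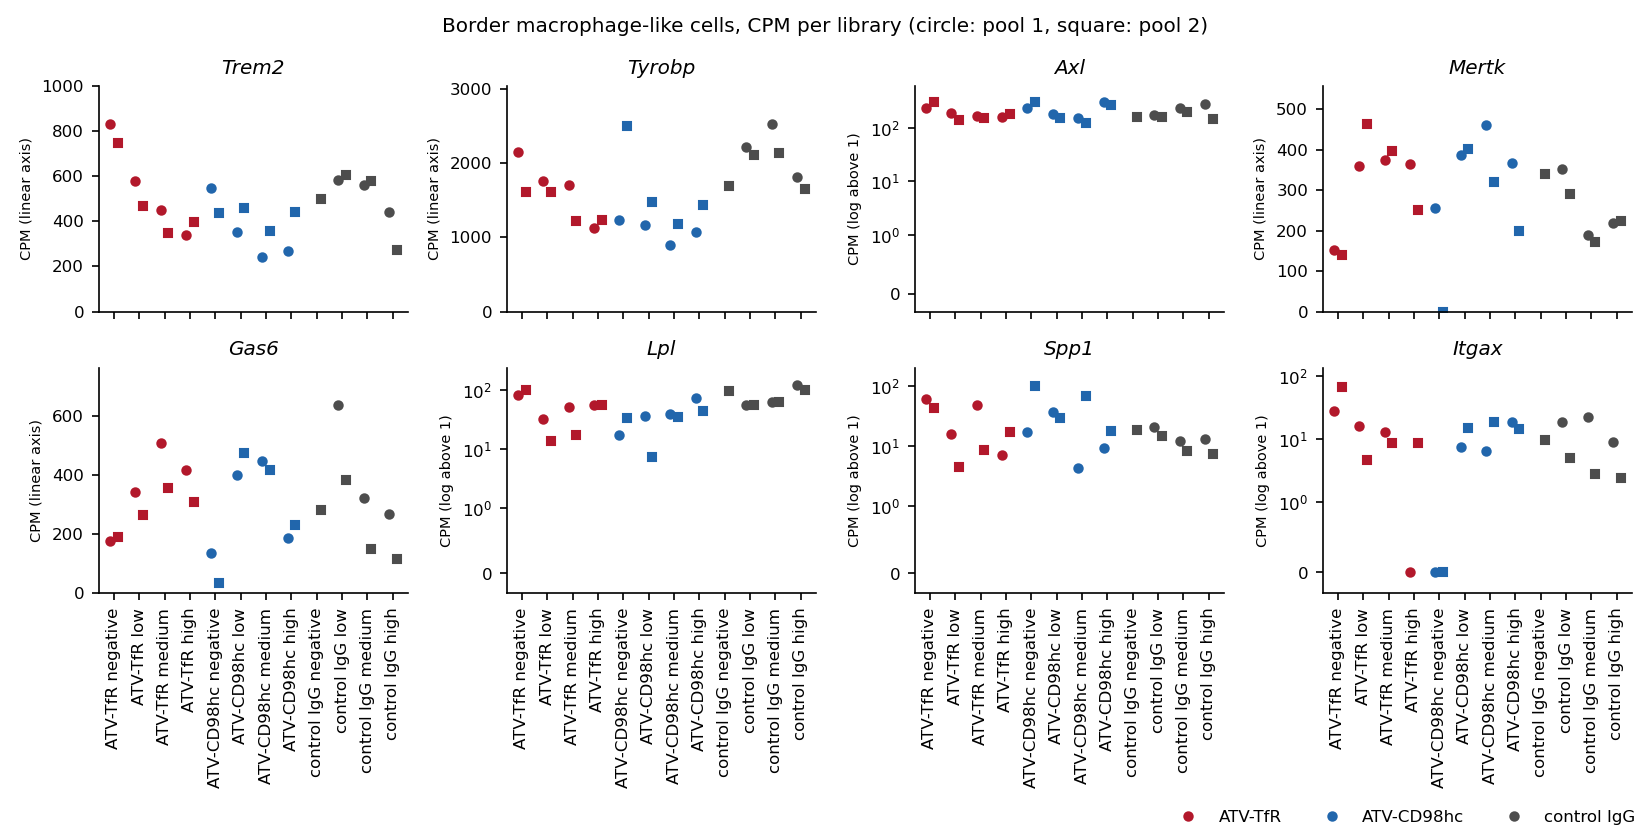
Level of 8 members (Gpnmb and Cst7 were too low to test) in border macrophage-like cells of every library, in CPM, by treatment and fluorescence bin; each point is 1 library (circles pool 1, squares pool 2), with axes logarithmic above 1 CPM for Axl, Lpl, Spp1 and Itgax. Trem2 falls and Mertk climbs from the negative to the medium bin of ATV-TfR (Trem2 834 and 748 to 451 and 349 CPM, Mertk 152 and 141 to 374 and 396 CPM).

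The bins held different mixtures of sub-clusters. The one led by H2-Aa (1708 cells) passed no list and is left unnamed: it held 4 of 10 border macrophage markers, and Ccr2, Ciita and Klra2 were among its leading genes. It held 295.6 CPM of Axl and 191.8 of Gas6. The one led by Lyve1 and F13a1 (775 cells), genes of perivascular and meningeal macrophages, had 10 of 10 of these markers and held 77.65 of Axl, 956.0 of Gas6 and 621.8 of Mertk, with no UMI of Cst7, Gpnmb or Itgax. Their Trem2 levels were alike, at 456.8 and 453 CPM. For Axl, Gas6 and Mertk the pools of the 2 sub-clusters did not overlap.

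In ATV-TfR the H2-Aa-led sub-cluster was 80.2% of border macrophage-like cells in the negative bin (85 of 106), 31.1% in the low, 31.0% in the medium and 58.5% in the high bin. The Lyve1-led one was 10.4%, 36.1%, 43.3% and 16.9%. In control IgG the Lyve1-led share was 49.7% in the low bin and 2.08% in the high bin (19 of 915), where 82.6% belonged to the H2-Aa-led one. Within the Lyve1-led sub-cluster Gas6 stood at 1083 and 956 CPM in the low and 1230 and 1065 in the high bin of control IgG, while over the whole class it fell. Within the H2-Aa-led one Trem2 stood at 867 and 845 CPM in the negative and 370 and 383 in the high bin of ATV-TfR, and Mertk at 122 and 158 against 478 and 323, so the libraries of these bins did not overlap inside this sub-cluster either; no test was run within it. The 10 markers of monocytes or dendritic cells summed to 741.9 and 778.2 CPM in the negative bin of ATV-TfR (5 and 4 of 10 with a UMI) and to 31.64 to 235.8 in its labelled bins, and their part in the differences between bins was not tested.

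Gene lists were read in these cells against the 7.12%, 8.23% and 8.26% of all genes called in the low, medium and high bins. All 6 MHC class II genes fell in the medium and high bins of ATV-TfR and 3 in the low bin, with summed levels of 49670 and 51590 CPM in the negative and 8964 and 19630 in the high bin. Of 10 border macrophage markers 5, 8 and 5 rose in the low, medium and high bins. Of 13 genes of TREM2 signalling and shedding, edgeR called none in the low bin and 1 as lower in the medium and in the high bin, Ms4a6c (-0.78 and -0.87), a share near that of all genes. Of 10 tested genes of the TAM axis, the cholesterol exporter Abca1 rose (1.19, 1.17 and 1.29) and Socs3 fell (-3.08, -3.10 and -2.54) in the 3 labelled bins. Of 25 other genes of activated microglia 3, 4 and 1 rose and 2, 6 and 5 fell, among them Igf1 (2.10 and 1.73, higher in the low and medium bins) and Cd83 (-1.56 and -1.86, lower in the low and medium bins).

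Astrocyte markers summed to 2990 and 5449 CPM in the low bin of ATV-TfR against 152 and 153 in the negative bin, and 12 of 12 endothelial markers were called higher in its high bin (7769 and 6245 CPM against 20.1 and 12.3). Without cells that held an astrocyte marker UMI the high-bin differences of Trem2 (-0.81, adjusted p = 0.32) and Tyrobp (-0.58, adjusted p = 0.35) were not called. Without sub-clusters led by genes of other cell types the calls of Mertk (low bin 1.06, adjusted p = 0.089; medium bin 1.03, adjusted p = 0.055), of Lpl (-1.49, adjusted p = 0.47), of Trem2 in the medium bin (-0.88, adjusted p = 0.11) and of Tyrobp (-0.63, adjusted p = 0.17) were lost. The direction stayed the same in each of these. Astrocyte-like cells averaged 531.6 CPM of Mertk, and the Mertk differences without astrocyte-marker cells are not given here.

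Outside the myeloid cells, Gas6 was called in both directions. In the low bin of ATV-TfR it was lower in ependymal-like cells (mean 580.3 to 231.9 CPM, -1.32, adjusted p = 0.00027). There 565 of 6877 genes were called higher and 573 lower. In choroid plexus epithelial-like cells Gas6 was called lower in that bin and higher in the high bins of both antibodies. Oligodendrocyte-like cells had it higher in the low bins of both. Gas6 was called higher in labelled pericyte-like cells of every treatment, where endothelial marker RNA rose as well. In ATV-TfR it stood at 17.3 and 15.8 CPM in the negative, 64.1 and 33.5 in the low, 59.2 and 77.3 in the medium and 92.3 and 103 in the high bin. The log2 fold changes were 1.55, 2.03 and 2.62 (adjusted p = 0.024, 3.3e-05 and 4.5e-08). In ATV-CD98hc the changes were 2.52, 3.14 and 3.48, from 8.99 and 15.2 CPM in the negative to 117 and 133 in the high bin (adjusted p = 5e-08 there), and in control IgG the low bin was higher by 1.34 (adjusted p = 0.049). The negative bin of control IgG, a single library, already stood at 51.57 CPM of Gas6. The negative bins of ATV-TfR (log2 fold change -1.61, adjusted p = 0.0011, with 5.17% of genes called) and of ATV-CD98hc (-2.125, adjusted p = 0.0009, with 4.31% of genes called) were lower than it. The share of all genes called between bins was 3.06%, 9.21% and 23.5% for ATV-TfR, 11.6%, 18.4% and 21.9% for ATV-CD98hc and 1.04% for control IgG. Axl moved in the opposite direction in pericyte-like cells, called lower in the high bin of ATV-TfR (183 and 213.6 to 92.1 and 103.4 CPM, -0.95 ± 0.19, adjusted p = 0.00056) and in all 3 labelled bins of ATV-CD98hc (-0.70, -0.94 and -1.07). Spp1 was called lower as well, in the high bin of ATV-TfR (100.2 and 126.6 to between 47.27 and 48.04 CPM, -1.18, adjusted p = 0.0084) and in the medium and high bins of ATV-CD98hc (-1.29 and -1.15, adjusted p = 0.016 and 0.034).

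The 12 endothelial markers summed in pericyte-like cells to 896.6 and 1207 CPM in the negative bin of ATV-TfR, 5050 and 1644 in the low, 6981 and 8088 in the medium and 13820 and 13650 in the high bin. For ATV-CD98hc they went from 1020 and 1101 CPM in the negative to 16600 and 14880 in the high bin, and they stood at 7611 CPM in the negative library of control IgG and 15240 and 18260 in its low bin. The 8 pericyte markers went from 40390 and 37950 CPM in the negative to 20040 and 19900 in the high bin of ATV-TfR. Endothelial-like cells averaged 193 CPM of Gas6, above every pericyte-like library given here. Cells without an endothelial marker UMI were 6 and 7 in the high bin of ATV-TfR and 4 and 7 in that of ATV-CD98hc, too few to fit, so the part of endothelial RNA in these differences was not tested. Without cells that held an astrocyte marker UMI, Gas6 was still called in the high bins of ATV-TfR (1.70, adjusted p = 0.00026) and ATV-CD98hc (2.41, adjusted p = 0.00014), while in the medium bin of ATV-TfR it was -0.7483 (adjusted p = 0.98). The high-bin calls of Axl (-0.61 and -0.68, adjusted p = 0.11 and 0.16) and Spp1 (-0.32 and -0.82, adjusted p = 0.57 and 0.23) and the Gas6 differences between negative bins and control IgG (-0.30 and -0.35, adjusted p = 0.94 and 1.0) were lost there.

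Trem2 and Tyrobp gave few UMIs in pericyte-like cells and were called lower in the medium and high bins of ATV-TfR. Tyrobp had 42 and 26 UMIs in the negative bin (16.18 and 15.82 CPM), 2 and 1 in the medium and 5 and 0 in the high bin (adjusted p = 0.038 and 2e-05). Trem2 had 26 and 22 UMIs in the negative bin, 1 and 0 in the medium and 2 and 0 in the high bin (adjusted p = 0.041 and 5.3e-05). The 12 microglial markers moved the same way, from a sum of 255.8 and 230 CPM in the negative bin to 92.78 and 98.59 in the medium and 85.62 and 93.04 in the high bin. Their part in the values of Trem2 and Tyrobp was not tested.

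In fibroblast-like cells Spp1 fell and Lpl rose wherever the test was called, and the bins drew on different clusters. Spp1 stood at 3820 and 3602 CPM in the negative and 566.2 and 703.1 in the low bin of ATV-TfR (-2.57 ± 0.28, adjusted p = 5e-07), and at 4011 and 3785 against 442.4 and 775.9 in the high bin of ATV-CD98hc (-2.71 ± 0.29, adjusted p = 6.9e-07). Lpl stood at 102.6 and 102.3 against 293.7 and 362.3 CPM (1.65 ± 0.28, adjusted p = 0.00011) in the first of these comparisons. With ATV-TfR, Mertk was higher in the low and in the medium bin, at 235.6 to 237.4 and 205.7 to 210 CPM against 42.48 to 72.92 (1.99 and 1.78, adjusted p = 7e-05 and 0.00044). Spp1 and Lpl were called in the same directions in the medium bin of both antibodies and in all 3 labelled bins of control IgG. The share of all genes called was 13.9% and 13.8% in the low and medium bins for ATV-TfR, 5.29% and 9.01% in the medium and high bins for ATV-CD98hc, and 13.9%, 14.7% and 12% from low to high for control IgG. The cluster led by Slc6a13 and Spp1 held 270 of 285 fibroblast-like cells in the negative bin of ATV-TfR and 54 of 56 in that of ATV-CD98hc, while the cluster led by Coch and Igfbp4 held 150 of 171 in the low bin of ATV-TfR and 150 of 169 in the high bin of ATV-CD98hc. Within the Slc6a13-led cluster Spp1 was 4141 and 4056 CPM in the negative and 2155 and 1761 in the low bin of ATV-CD98hc.

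In astrocyte-like cells Axl and Gas6 were higher in the high bin of ATV-TfR, at 84.8 and 87.0 against 52.5 and 55.5 CPM for Axl (0.77 ± 0.12, adjusted p = 8.4e-05) and 106 and 95.5 against 65.5 and 66.9 for Gas6 (0.71 ± 0.11, adjusted p = 7.5e-05), where 16% of genes were called. The cluster led by C030018K13Rik and Lhx2 made up 32.6% of the negative and 50.6% of the high bin, and the one led by A330076C08Rik and Sntg1 33.6% and 14.6%. Within the first, Axl stood at 49.31 and 57.39 against 91.93 and 94.45 CPM and Gas6 at 71.43 and 79.13 against 120.3 and 104.3, so the bins did not overlap there, while within the second Gas6 overlapped (55.94 and 47.14 against 55.77 and 58.86 CPM). Endothelial markers summed to 12.12 and 10.74 CPM in the negative and 667.5 and 478.3 in the high bin. Without cells that held an endothelial marker UMI, Axl (0.76, adjusted p = 0.0016) and Gas6 (0.52, adjusted p = 0.02) were still called. Axl was also called in the medium bin (0.40, adjusted p = 0.022, with 4.43% of genes called). Trem2 and Tyrobp were low in these cells and fell in all 3 labelled bins of ATV-TfR, 1.54% of genes being called in the low bin. Tyrobp went from 8.975 and 9.862 CPM in the negative bin to between 3.582 and 4.748 in the low, 1.209 and 1.361 in the medium and 0.8526 and 1.225 in the high bin (-1.13, -2.81 and -3.03, adjusted p = 0.019, 8.4e-07 and 0.001). Trem2 went from 3.381 and 5.435 CPM to between 1.601 and 2.128 in the low and 0.5405 and 0.574 in the medium bin (-1.205 and -2.93, adjusted p = 0.036 and 6e-06), and its high bin held 0 and 0.8526 CPM (adjusted p = 0.0038). With ATV-CD98hc both were instead higher in the low bin, Tyrobp by 2.18 and Trem2 by 2.04 (adjusted p = 7.3e-05 and 0.00015, with 2.87% of genes called). The 12 microglial markers summed in astrocyte-like cells to 200.6 and 172.7 CPM in the negative and 112.4 to 147.9 in the labelled bins of ATV-TfR, and to 131 and 141.2 in the negative and 196.4 and 200.6 in the low bin of ATV-CD98hc. Their part in these values was not tested.

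In the high bin of ATV-CD98hc Mertk fell by 1.55 on the log2 scale, from 714 and 675 to 222 and 295 CPM (-1.55 ± 0.14, adjusted p = 4.3e-08), and Lpl rose from 0.0663 and 0.143 to 46.6 and 29.5 CPM (8.52 ± 0.70, adjusted p = 9.5e-09), with 16.5% of genes called. Mertk was already lower in the medium bin (-0.60, adjusted p = 0.0016, with 16% of genes called). In the low bin of control IgG, set against its single negative library, Gas6 (1.05) and Lpl (9.37) were called higher and Mertk (-2.31) and Axl (-1.13) lower, with 23% of genes called. These low-bin values rest on 20 and 45 cells, of which 40 of 65 belonged to the cluster led by Crym and Prss56, against 156 of 5047 in the negative library. Lpl had 13 and 31 UMIs there, all in that cluster. With ATV-CD98hc the negative bin was led by 1 astrocyte cluster (2248 of 5430 cells) and the high bin by others (185 and 138 of 429 cells), and the levels of Mertk differed between these clusters (998.6 and 807.4 CPM in the first, 279.2 and 235.1 in the second, both in the negative bin). Tested as an interaction between the 2 antibodies, 1.7%, 7.38% and 8.64% of genes differed in the low, medium and high bins of astrocyte-like cells, and Axl, Gas6, Mertk and Lpl were among them in the high bin. The Lpl came from the cluster led by Crym and Prss56, which held 225.7 and 215.4 CPM in the high bin (27 and 15 cells) and no UMI in the negative bin (153 and 91 cells).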

How the data were processed

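The authors deposited UMI counts per gene and cell barcode for all 23 libraries, made with Cell Ranger 7.1.0 per the file headers; the build is mm10 (GRCm38) per the submitters' processing notes. Barcodes were joined to libraries through the deposited library index. Barcodes were kept from 500 genes and 800 UMIs upward where mitochondrial counts did not pass 10%, and doublets were removed with Scrublet (0.966 to 7.91% per library; in 8 libraries whose automatic threshold marked under 0.5% or over 25% of cells, the 94th percentile of the score was used). The remaining cells were clustered with scanpy 1.11.5 on 2000 variable genes, 50 principal components, 15 neighbours and Leiden resolution 1, leaving out the members and sex-linked, mitochondrial and ribosomal genes. A cluster took a class name where at least 3 markers, and at least 0.5 of the list, were detected. It stayed unnamed where its leading genes or its depth went against that name. The cells' own free RNA was not removed.

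Counts were summed per class and library with at least 20 cells and compared with edgeR 4.0.16 (R 4.3.3; TMM scaling, low-count filter, quasi-likelihood test, 1 mean per group), with p-values adjusted over all genes tested. SE is the log2 fold change divided by the square root of F. Simulated counts with known changes were used to check the fit. The 10 members were named as a set, though not every call of them outside microglia-like and border macrophage-like cells is given. From each pathway list, up to 3 genes called higher and 3 called lower with the largest log2 fold change among those without overlap of libraries were named. The members and lists were chosen with earlier results of these data known.

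Bins of 1 pool come from the same animals per the labels, so the fit with the pool as replicate block is given where it changed a call; the deviations of same-numbered libraries correlated by -0.0762 to 0.52 in microglia-like and -0.0832 to 0.59 in border macrophage-like cells. Alternatives were other scaling (RLE), DESeq2 1.42.0, no or a stricter low-count filter, other cell minimums, doublets kept, Leiden resolution 2, each replicate left out, and cells with UMIs of endothelial or astrocyte markers left out. Library depth sets which genes could be tested.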

Additional observations from a re-analysis of the deposited data

Results flagged for a closer look

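Values of the 6 pools were compared within each class. In microglia-like cells the pool 1 of control IgG stood far from the other pools for Axl (145.6 CPM), Lpl (415.9 CPM), Spp1 (561.4 CPM) and Itgax (51.99 CPM). This pool has no negative bin here and held 25 microglia-like cells, all from labelled bins. Pool 1 of ATV-CD98hc stood apart for Gpnmb in microglia-like cells (2.317 CPM). In border macrophage-like cells pool 1 of control IgG stood apart for Gpnmb (1.059 CPM) and pool 2 of ATV-TfR for Cst7 (2.372 CPM). Over all pools these cells held only 3 UMIs of Gpnmb and 3 of Cst7. Chance alone marks about 1 in 20 such groups, a rate that was not checked for genes with so few UMIs.

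Changes from the negative to a labelled bin that differed between ATV-TfR and ATV-CD98hc by the interaction test are given as log2 differences, ATV-TfR minus ATV-CD98hc. In microglia-like cells Lpl in the medium bin differed by 2.952, a call lost under several alternatives. In astrocyte-like cells of the high bin Mertk differed by 1.458, Axl by 0.7406, Gas6 by 0.8464 and Lpl by -9.971. Mertk differed by 0.6019 and Tyrobp by -2.331 in the medium bin, and Tyrobp by -3.312 and Trem2 by -3.244 in the low bin. Trem2 and Tyrobp did not pass 14.5 CPM in astrocyte-like cells of these bins. Other classes held such differences too. Gas6 in ependymal-like cells of the low bin differed by -1.362 (edgeR, adjusted p = 0.033). Tyrobp and Trem2 in choroid plexus epithelial-like cells of the low bin were also called, as was Trem2 in oligodendrocyte-like cells of the medium bin. Each of these was negative, with the values not given here.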

How the results depend on the processing

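Of the log2 fold changes of single genes under the alternatives, 5586 kept direction and side of the threshold, 500 lost the call, 135 gained it and 3 turned: Spp1 in microglia-like cells of the low bin of ATV-TfR (-3.41) and Gas6 in pericyte-like cells of its medium bin (-0.7483), both without astrocyte-marker cells, and Cadm1 in border macrophage-like cells of its medium bin without sub-clusters of other types (-0.006351). The cause was not tested.

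Counts of members called in microglia-like cells, each labelled bin against the negative bin, are given here where they moved by over 1.5 times. The share of all genes called under each alternative is not given. The counts here and in the paragraphs below therefore show how calls depend on the processing and are not results about the members. For the low bin of ATV-TfR 5 became 1 without astrocyte-marker cells and lay between 4 and 6 otherwise, and for its medium bin 6 became 5 to 7. For ATV-CD98hc, 0 in the low bin became 4 with no filter, 3 with the replicate block and 1 without astrocyte-marker cells. Its medium bin went from 2 to 5 with no filter, 4 with the replicate block, 4 with doublets kept, 0 without endothelial-marker and 0 without astrocyte-marker cells, and in its high bin 3 became 5 with no filter and 6 with the replicate block. For the low bin of control IgG 1 became 2 with RLE scaling, 3 with no filter and 0 with the replicate block. Between the negative bins of ATV-TfR and control IgG 1 became 0 with DESeq2 or without the chemokine-led sub-cluster, 4 with no filter, and 2 with at least 50 cells, with doublets kept, without astrocyte-marker cells or without sub-clusters of other types. Between those of ATV-CD98hc and control IgG 0 became 2 with no filter and 1 with doublets kept, no astrocyte-marker cells or no sub-clusters of other types. For the difference between the antibodies, 0 became 1 in the low bin with no filter. For the medium bin 1 became 2 with no filter or the replicate block, and 0 with doublets kept, without endothelial-marker cells, or without either kind of sub-cluster.

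In border macrophage-like cells of ATV-TfR, 2 became 1 with DESeq2, 4 with the replicate block and 0 without sub-clusters of other types in the low bin. For the medium bin 2 became 4 with no filter, doublets kept or Leiden resolution 2, 5 with the replicate block or without endothelial-marker cells, and 1 without sub-clusters of other types. In the high bin 2 became 4 with no filter, 7 with the replicate block, 5 with doublets kept and 1 without astrocyte-marker cells. In the high bin of control IgG 0 became 1 with the replicate block. From low to high, 0 became 2 in ATV-TfR with doublets kept. In ATV-CD98hc 0 became 1 with RLE scaling, no filter or the replicate block, 2 with doublets kept or Leiden resolution 2 and 3 without endothelial-marker cells. In control IgG 1 became 2 with no filter or without astrocyte-marker cells and 3 with the replicate block.

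With each replicate left out in turn, counts in microglia-like cells ran from 4 to 5 and 5 to 7 (ATV-TfR low and medium), 0 to 3 (ATV-CD98hc low), 0 to 4 (medium), 0 to 3 (high), 1 to 3 (high against low), 0 to 2 (control IgG low), 1 to 2 and 0 to 1 (negative bins of ATV-TfR and of ATV-CD98hc against control IgG) and 0 to 1 (antibody difference, medium). In border macrophage-like cells they ran from 0 to 2, 0 to 5 and 0 to 4 (ATV-TfR low, medium and high), and 0 to 1 (ATV-CD98hc and control IgG high against low). Where a group kept 1 library, its spread was taken from the other groups. In these 2 classes the replicate block changed no call of a member other than those given. Negative bins of different treatments come from different animals and were not blocked.

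In the negative bin alone the means in microglia-like cells were 6.970 CPM for Cst7, 26.7 for Lpl, 31.07 for Spp1, 6.578 for Itgax and 4.757 for Axl, each below the mean over all bins, and in border macrophage-like cells 693.7 for Trem2, 233.1 for Axl, 210.9 for Mertk, 216.4 for Gas6, 90.83 for Lpl, 40.63 for Spp1, 34.97 for Itgax and 2.043 for Cst7. Without thinning, co-detection averaged 0.5638%, 8.023% and 24.2% in the negative, low and medium bins of ATV-TfR and 1.651%, 7.841% and 21.3% in the low, medium and high bins of ATV-CD98hc. For 3 or more of the 6 genes it was 0.0264%, 0.7188% and 3.768% in ATV-TfR and 0.3086% in the medium bin of ATV-CD98hc, whose high bin held 1 of 57 and 0 of 27 such cells. Bins with few cells limited which genes could be tested.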
